A study of Caenorhabditis elegans with 8 samples.

Results

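RNA of first-stage larvae (L1) of Caenorhabditis elegans was compared between FAS43, a strain with mutations in its genes for the replacement histone H3.3, and the laboratory wild type N2. The comparison rested on 4 of the 8 libraries of the series, 2 of FAS43 L1 larvae and 2 of N2 L1 larvae, chosen by their labels. The other 4 libraries came from mixed-stage embryos of the same 2 strains and served here only to place the genes found in larvae. FAS43 carries the alleles uge44 of his-69 and his-70 and tm2066 of his-72 on chromosome III, uge18 of his-74 on V and ok2289 of his-71 on X. N2 carries none of them. All animals were kept at 20 °C, RNA was taken with Trizol, and stranded mRNA libraries were sequenced as reads of 50 bases. The series was set up around the use of the H3.3 genes and temperature stress, but no group was labelled as heated. The labels give neither the hours after hatching nor whether the larvae had been fed. They do not say that the libraries of a strain came from separate cultures either, so p-values reflect the spread from library to library, and part of that may be technical.

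H3.3 is a variant of histone H3 that cells can load onto DNA at any time of the cell cycle, mostly at active genes. A newly hatched C. elegans larva that finds no food halts its growth and lives on its fat stores. Signals of the insulin receptor DAF-2 to the FOXO factor DAF-16 govern this halt, and feeding turns on gut digestive enzymes, protein synthesis and the first molting cycle. Eggs also pass maternal RNAs to the embryo. Somatic cells clear these RNAs while germline precursors keep part of them, so the level of maternal and cell division transcripts falls with age around hatching. Larvae meet foreign and toxic compounds in 3 layers: phase I enzymes such as the cytochrome P450s that oxidise them, phase II enzymes such as glutathione S-transferases and UDP-glucuronosyltransferases that attach a soluble group, and membrane pumps such as the P-glycoproteins.

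The FAS43 L1 libraries held 25192440 and 24091919 counts and the N2 L1 libraries 28974428 and 19013469. Ribosomal RNA genes made up 1.82% and 4.18% of counts in FAS43 and 1.91% and 3.91% in N2, and were more frequent in replicate 2 of both strains. The libraries did not fall into strains on the main axes of variation. The first principal component (49.3% of the variance) set N2 replicate 2, at 78.5, apart from the other 3, which all lay below 0. The second (37.7%) set FAS43 replicate 1, at 67.8, apart from FAS43 replicate 2, at -42, with both N2 libraries in between. Genes of adults were near absent: 4 of 50 sperm protein genes were listed, and yolk protein transcripts summed to 9.25 and 6.38 CPM (read counts scaled to a common effective library size) in FAS43 and 8.83 and 9.56 CPM in N2.

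The H3.3 genes checked the genotype. His-71 had 6 and 6 counts in FAS43 and 4595 and 4020 in N2, and his-72 had 98 and 162 counts in FAS43 and 10881 and 11314 in N2. His-70 had 0 and 0 counts in FAS43 and 13 and 41 in N2. These groups did not overlap. His-74 had 27.9 and 14.02 CPM in FAS43 and 10.2 and 15.7 CPM in N2, and these overlapped. What allele uge18 takes out of his-74 is not given in the labels, so the his-74 counts check nothing.

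Of 16099 genes tested with the quasi-likelihood test of edgeR, 1 gene (0.00621%) was higher in FAS43 L1 larvae and 2 genes (0.0124%) were lower at an adjusted p under 0.05. The higher gene was Y75B8A.33, and the lower ones were his-71 (log2 fold change -9.47, SE 0.873, edgeR adjusted p = 1.936e-07) and his-72 (-6.41, SE 0.840, edgeR adjusted p = 0.0001209). At an unadjusted p under 0.05, 289 genes (1.8%) were higher and 254 (1.58%) lower. A change that holds in these larvae was therefore sought gene by gene in the 4 pairs that set a FAS43 library against an N2 library. Each pair gave a log2 ratio of CPM with 0.5 CPM added, and the smallest of the 4 ratios, called the weakest pair below, ranked the genes. All 4 pairs had the same sign for 2083 genes higher in FAS43 (12.9%) and 2288 genes lower (14.2%). Neither share was larger than a random order of the 4 libraries would give, so these are not counts of changed genes. All 4 pairs were at least 2-fold apart for 6 genes higher in FAS43 (0.0373%) and 32 genes lower (0.199%). Between the libraries of a strain, where there is a single pair and the count is not comparable, replicate 2 was at least 2-fold above replicate 1 for 1825 genes in FAS43 (11.3%) and 1603 genes in N2 (9.96%), and at least 2-fold below it for 2110 genes in FAS43 (13.1%) and 2074 in N2 (12.9%).

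Of the 32 genes lower by at least 2-fold in all 4 pairs, 27 had both within-strain ratios under 2-fold, and for 29 the weakest pair was larger than either within-strain ratio. Both held for 5 and 6 of the 6 higher genes. The median difference between the libraries of a strain was 0.287 (FAS43) and 0.343 (N2) on the log2 scale for the lower genes, against 0.574 and 0.553 for all genes tested. The choice of genes used these libraries, so these figures describe them and test nothing. In the authors' deposited table, 30 of the 32 lower genes and 6 of the 6 higher ones carried the mark of significance, as did 567 of all genes tested; the rule of that mark is not given. The threshold fell in a continuous range. Just inside it lay hsp-16.2 and K10H10.6, both at -1.01, and Y54E5A.6 at 1.05. Just outside it lay C42D4.2 at -0.99, C06E4.8 at -0.96, F36D3.1 at 0.96, F55G1.7 at 0.94 and sygl-1 at 0.90. With 2 CPM added in place of 0.5 CPM, 12 genes were lower at 2-fold and 6 higher. A mean under 5 CPM was found for 17 of the 32 lower genes.

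**Figure D1:**
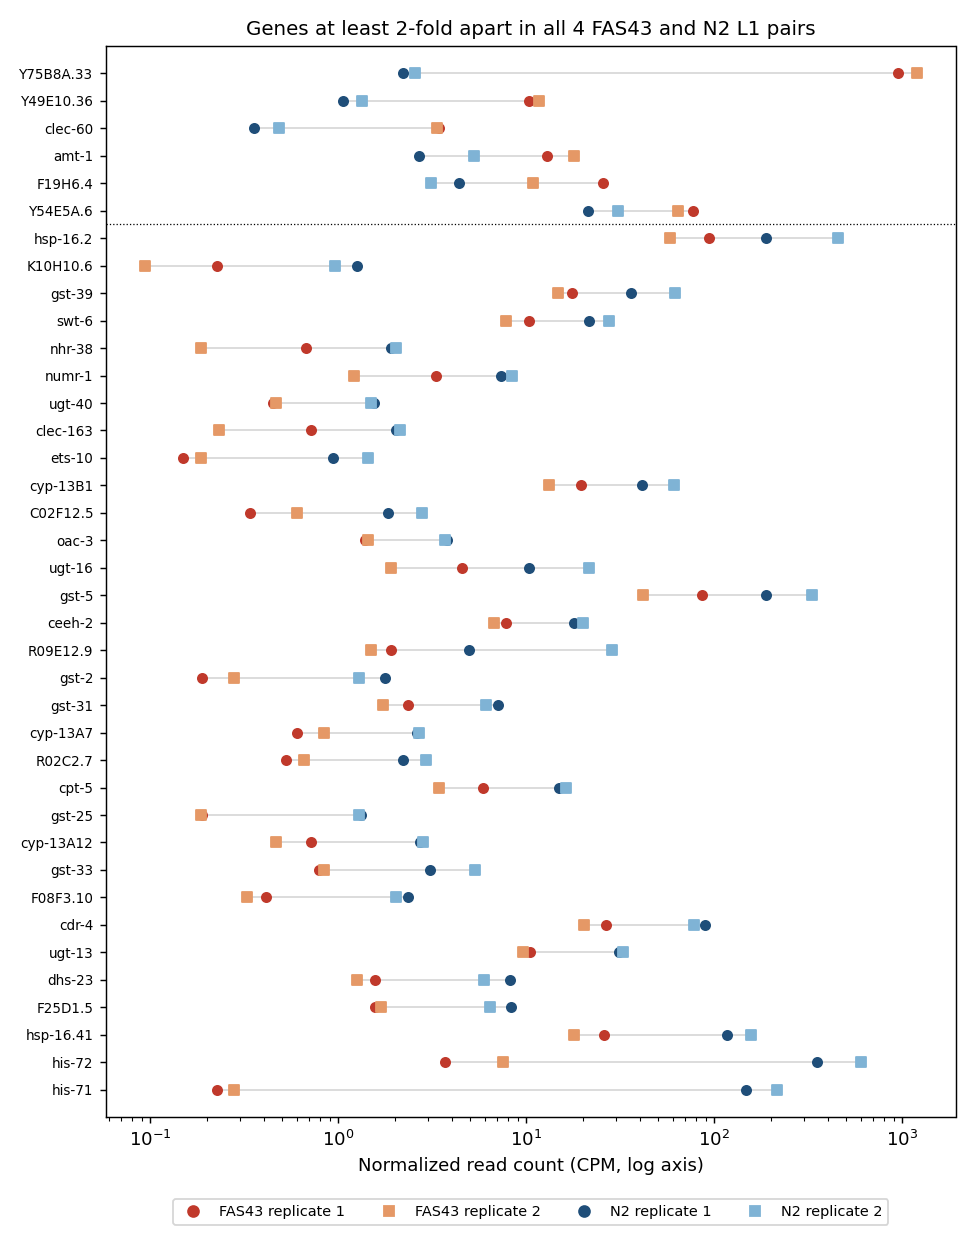
Normalized read counts (CPM, log axis) of the 38 genes that were at least 2-fold apart in all 4 pairs of a FAS43 and an N2 L1 library, 1 row per gene and 1 point per library, with the 6 genes higher in FAS43 above the dotted line and the 32 lower genes under it. The FAS43 points stand clear of the N2 points in every row; Y75B8A.33, his-71 and his-72 are farthest apart, and 17 of the lower genes have a mean under 5 CPM.

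The higher genes were led by 2 that lie at his-72. Y75B8A.33 had 944 and 1194 CPM in FAS43 and 2.22 and 2.56 CPM in N2, or 8.80 on the log2 scale (SE 0.987, adjusted p = 7.533e-06 with edgeR). Its annotation spans chromosome III, 12361838 to 12367373, minus strand (WBcel235), directly downstream of his-72, which runs from 12367475 to 12369050 on the same strand. The small nucleolar RNA gene Y49E10.36 lies within his-72 (12368319 to 12368544). Y49E10.36 had 10.4 and 11.6 CPM in FAS43 and 1.06 and 1.34 CPM in N2 (log2 fold change 3.20, SE 0.716, edgeR adjusted p = 0.3044). Its counts are uncertain, because it shares its place with his-72. The same 2 genes were higher in FAS43 in all 4 pairs of embryo libraries, which the larval comparison did not use, with weakest pairs of 7.42 for Y75B8A.33 and 1.27 for Y49E10.36.

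None of the other 4 higher genes passed (adjusted p = 0.9996 for each, edgeR). Amt-1, which encodes an ammonium transporter, had 12.9 and 17.98 CPM in FAS43 and 2.70 and 5.23 CPM in N2. The C-type lectin gene clec-60, one of the genes known from responses to bacterial infection, had 3.41 and 3.35 CPM in FAS43 and 0.353 and 0.481 CPM in N2, a log2 fold change of 3.02 (SE 0.836). F19H6.4 had 25.42 and 10.9 CPM in FAS43 and 4.37 and 3.1 CPM in N2, and its FAS43 libraries were more than 2-fold apart. Y54E5A.6, now named dus-2, had 76.6 and 64.2 CPM in FAS43 and 21.2 and 30.9 CPM in N2. In embryos Y54E5A.6 had 63.5 and 77.5 CPM in FAS43 and 40.9 and 24.5 CPM in N2, again without overlap (weakest pair 0.63), while F19H6.4 had 69.3 and 121.8 CPM in FAS43 and 114.3 and 32.05 CPM in N2, which overlapped. Amt-1 and clec-60 were not in the embryo table. Of the 6 genes, Y75B8A.33, Y49E10.36 and Y54E5A.6 were thus the ones that differed the same way in every pair of both stages. Over all genes tested in embryos, 3.49% were higher in FAS43 and 7.46% lower in all 4 pairs.

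Among the 32 lower genes, detoxification enzymes were the largest group. The families were chosen after the values were seen: 6 of the 32 genes are glutathione S-transferases (gst-2, gst-5, gst-25, gst-31, gst-33 and gst-39), 3 are UDP-glucuronosyltransferases (ugt-13, ugt-16 and ugt-40), 3 are cytochrome P450s (cyp-13A7, cyp-13A12 and cyp-13B1) and the short-chain dehydrogenase gene dhs-23 makes 13. Over all genes tested, 199 of 16099 belong to these 4 families. None of the 13 passed the test (edgeR adjusted p = 0.9996 for each). Listed genes have at least 10 counts in their second-highest library. Gst-2 had 5 and 6 counts in FAS43 and 55 and 24 in N2, and gst-25 had 5 and 4 in FAS43 and 41 and 24 in N2. Both thus entered only through N2, and their place among the lower genes partly follows from that floor. Many genes of these families are close copies of each other, so a single value can be split among relatives.

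The glutathione S-transferase gene gst-5 was the most abundant of the 13. It had 86.3 and 41.8 CPM in FAS43 and 188.3 and 331.6 CPM in N2 (log2 fold change -2.02, SE 0.662). The lower N2 library was thus above the higher FAS43 library by more than 2-fold, though the FAS43 libraries were also 2-fold apart. Gst-39 had 17.4 and 14.7 CPM in FAS43 and 35.9 and 62 CPM in N2. Its neighbour gst-31 had 2.36 and 1.72 CPM in FAS43 and 7.10 and 6.09 CPM in N2. Both lie on the minus strand of chromosome II (gst-39 from 15171163 to 15171916, gst-31 from 15174229 to 15174965), and in each the libraries of a strain were closer to each other than to the other strain. Gst-33, gst-25 and gst-2 were rare, at between 0.186 and 0.838 CPM in FAS43 and between 1.28 and 5.34 CPM in N2.

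Of the UDP-glucuronosyltransferases, ugt-13 was the most even, with 10.4 and 9.64 CPM in FAS43 and 31.1 and 32.7 CPM in N2 (log2 fold change -1.67, SE 0.573). Ugt-16 was uneven in both strains, with 4.53 and 1.91 CPM in FAS43 and 10.4 and 21.6 CPM in N2. The P450 gene cyp-13B1 had 19.4 and 13.1 CPM in FAS43 and 41.24 and 61.2 CPM in N2 (log2 fold change -1.65, SE 0.575). Its groups stood clear of each other, by a weakest pair of -1.07. Its relatives cyp-13A7 and cyp-13A12 were at most 0.838 CPM in FAS43 and at least 2.60 CPM in N2. Dhs-23 had 1.57 and 1.26 CPM in FAS43 and 8.22 and 5.93 CPM in N2, a log2 fold change of -2.32 (SE 0.721).

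Outside these families, cdr-4, ceeh-2, numr-1, cpt-5 and swt-6 were also at least 2-fold lower in all pairs, and none passed the test (edgeR adjusted p = 0.9996 for each). Cdr-4, of a cadmium-responsive family, had 26.6 and 20.1 CPM in FAS43 and 88.6 and 77.5 CPM in N2 (log2 fold change -1.83, SE 0.581). The epoxide hydrolase gene ceeh-2 had 7.79 and 6.71 CPM in FAS43 and 17.95 and 20.03 CPM in N2. Numr-1, known for its response to metals, had 3.29 and 1.21 CPM in FAS43 and 7.29 and 8.38 CPM in N2, so its FAS43 libraries were more than 2-fold apart. Cpt-5, a carnitine palmitoyltransferase gene of fat oxidation, had 5.84 and 3.45 CPM in FAS43 and 14.9 and 16.3 CPM in N2. The sugar transporter gene swt-6 had 10.3 and 7.78 CPM in FAS43 and 21.5 and 27.6 CPM in N2. For cdr-4, ceeh-2, cpt-5 and swt-6 the libraries of each strain were within 2-fold of each other.

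The small heat shock genes hsp-16.41 and hsp-16.2, which encode chaperones that are switched on by heat and other protein damage, were the remaining pair above 10 CPM. Hsp-16.41 had 25.9 and 17.9 CPM in FAS43 and 117.3 and 156.8 CPM in N2, with a weakest pair of -2.16, the largest of the lower genes outside H3.3. Hsp-16.2 had 93.6 and 58.1 CPM in FAS43 and 189.2 and 456.9 CPM in N2. The N2 libraries of hsp-16.2 were more than 2-fold apart. The genes sit head to head on chromosome V (hsp-16.2 from 1804334 to 1804957 on the minus strand, hsp-16.41 from 1805178 to 1805875 on the plus strand), and close copies elsewhere in the family make their single counts uncertain. Neither of them passed (edgeR adjusted p = 0.3839 for hsp-16.41 and 0.9996 for hsp-16.2), but hsp-16.41 did with DESeq2 (adjusted p = 0.006858). In embryos hsp-16.41 had 108.6 and 33.7 CPM in FAS43 and 110.4 and 262.7 CPM in N2, which kept the sign in all 4 pairs only by a margin of -0.024. Of the whole list of 20 heat shock genes tested, 7 were lower in all 4 pairs (35%) and 1 higher; hsp-110 had 629.9 and 471.4 CPM in FAS43 and 810.8 and 1244 CPM in N2, and dnj-12 was the higher one. The median log2 fold change of the list, -0.69, was -0.03 without N2 replicate 2.

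The remaining lower genes were mostly rare and of scattered roles. R09E12.9 had 1.91 and 1.49 CPM in FAS43 and 4.98 and 28.4 CPM in N2, and N2 replicate 2 stood far above the rest (log2 fold change -3.29, SE 0.763, edgeR adjusted p = 0.3839). F25D1.5 had 1.57 and 1.68 CPM in FAS43 and 8.29 and 6.41 CPM in N2. The acyltransferase gene oac-3, the nuclear receptor gene nhr-38, the lectin gene clec-163, the ets-family gene ets-10, and F08F3.10, R02C2.7, C02F12.5 and K10H10.6 had between 0.0932 and 1.44 CPM in FAS43 and between 0.931 and 3.76 CPM in N2. Ets-10 and K10H10.6 had under 10 counts in each FAS43 library and were listed only through N2. Of the 32 lower genes, 16 (50.0%) lie on chromosome V, which holds 20.9% of the genes tested, and the 6 higher genes include none from it. Chromosome V also holds 30.2% of the 2288 genes lower in all 4 pairs.

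The detoxification families were then read whole. They were chosen after the values of these same libraries were seen. Members at least 2-fold lower in all 4 pairs are counted again here. These are 6 glutathione S-transferases, 3 UDP-glucuronosyltransferases, 3 cytochrome P450s and 1 short-chain dehydrogenase. The family shares and medians therefore describe these libraries and are no separate test of the families. Of 41 glutathione S-transferase genes tested, 24 were lower in FAS43 in all 4 pairs (58.5%) and 0 higher, where all genes had 14.2% and 12.9%. Rare genes were more often lower than higher: of 5298 tested genes with a mean under 5 CPM, 1262 were lower in all pairs and 305 higher. The part that low counts had in the family shares was not tested. Their median log2 fold change was -0.86, against -0.004 over all genes tested. In each library the median member stood at -0.39 and -0.37 in FAS43 and at 0.11 and 0.56 in N2, on the log2 scale relative to the mean of the 4 libraries. Leaving out any library kept the median between -1.1 and -0.61. A much used reporter of the oxidative stress factor SKN-1, gst-4, had 3.89 and 4.19 CPM in FAS43 and 8.67 and 6.03 CPM in N2, while skn-1 itself had 289.4 and 300.5 CPM in FAS43 and 284.7 and 149.2 CPM in N2.

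Of 59 UDP-glucuronosyltransferase genes, 25 were lower in all 4 pairs (42.4%) and 2 higher, with a median log2 fold change of -0.49 (from -0.68 to -0.29 with a library left out). Of 69 cytochrome P450 genes, 25 were lower (36.2%) and 4 higher, with a median of -0.34 (from -0.69 to -0.20). Of 30 short-chain dehydrogenase genes, 7 were lower (23.3%) and 4 higher, with a median of -0.28. Of the 14 P-glycoprotein genes, the pumps of the last layer, 1 was lower and 1 higher, with a median of 0.06. Of the list of 38 genes of oxidative and xenobiotic stress, 17 were lower in all 4 pairs (44.7%), among them gst-5 and cyp-13A7 by 2-fold, and 1 higher, skn-1, by a weakest pair of 0.02. The superoxide dismutase genes were mixed: sod-5 had 13.7 and 9.78 CPM in FAS43 and 15.6 and 57.1 CPM in N2, whereas sod-1 had 147.5 and 149.0 CPM in FAS43 and 131.3 and 200.3 CPM in N2, which overlapped. No member of these families passed the test over all genes.

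**Figure D2:**
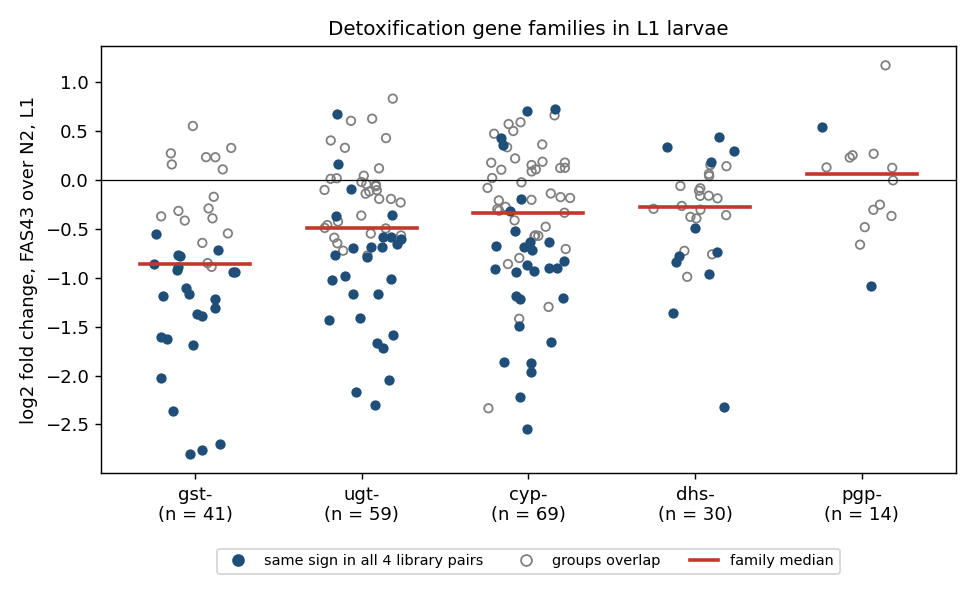
Log2 fold change of FAS43 over N2 L1 larvae for each tested member of 5 detoxification families (n under each name), with filled points for genes of one sign in all 4 library pairs, open points for genes whose strains overlap and a bar at the family median. The glutathione S-transferases (gst-) lie lowest, with 24 of 41 lower in all pairs and a median of -0.86, and the P-glycoproteins (pgp-) are centred near 0. The families were chosen after the values of these libraries were seen.

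Embryo libraries of the same strains gave a separate reading of the families. Among the 13256 genes tested in both stages, 7994 had a negative log2 fold change in embryos and 5262 a positive one, with a median of -0.09. Of all genes tested in embryos, 3.49% were higher and 7.46% lower in all 4 pairs. Of 31 glutathione S-transferase genes tested in embryos, 26 had a positive log2 fold change and 5 a negative one, with a median of 0.39; 2 were higher and 0 lower in all 4 pairs. The median was -0.15 for 49 UDP-glucuronosyltransferase genes, of which 8 were lower and 3 higher in all pairs, and -0.08 for 41 cytochrome P450 genes. Gst-5 had 15.7 and 6.79 CPM in FAS43 embryos and 5.33 and 7.43 CPM in N2 embryos, which overlapped. Over all 14 lower genes other than H3.3 genes that were tested in embryos, 6 were negative and 8 positive there, and 2 (ugt-40 and hsp-16.41) were lower in all 4 embryo pairs. The lower genes thus showed no common direction in embryos, where 16 of the 32 were listed. A test of the difference between stages, over the 13335 genes in both tables, called 0 genes with edgeR (199 at an unadjusted p under 0.05).

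Larval age was read from 14 lists of genes that mark steps between egg and growing larva. In bulk RNA, fewer cells of a type and less RNA per cell cannot be told apart. Of 40 regulators of maternal RNA in the oocyte and early embryo, 25 were higher in FAS43 in all 4 pairs (62.5%, against 12.9% of all genes) and 0 lower. Of 26 germ granule genes 17 were higher (65.4%), of 69 genes of DNA replication and the cell cycle 35 (50.7%), and of 34 early zygotic regulators 15 (44.1%). None of these reached 2-fold in all pairs, and none passed the test over all genes.

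In these lists both FAS43 libraries lay above both N2 libraries in the median, with a wide spread within each strain. The median maternal regulator stood at 1.15 in FAS43 replicate 1, 0.14 in FAS43 replicate 2, -0.13 in N2 replicate 1 and -1.04 in N2 replicate 2 (log2 scale, relative to the mean of the 4). FAS43 replicate 2 was closer to N2 replicate 1 than to FAS43 replicate 1, and within each strain replicate 2 was lower by a median of -1.08. For replication and cell cycle genes the medians were 1.12 and -0.15 in FAS43 and -0.25 and -0.77 in N2. Without FAS43 replicate 1 the median log2 fold change was 0.49 for maternal regulators, against 1.17 with all libraries, and 0.26 for replication and cell cycle genes, against 1.01. The same order of libraries was common gene by gene: of the 2083 genes higher in all 4 pairs, 1197 (57.5%) had FAS43 replicate 1 highest and N2 replicate 2 lowest. Of the 2288 lower genes, 899 (39.3%) had N2 replicate 2 highest and FAS43 replicate 2 lowest, and 725 (31.7%) N2 replicate 2 highest and FAS43 replicate 1 lowest.

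Several single genes followed this order. The gene pie-1, which keeps germline precursors from turning on somatic genes, had 44.7 and 19.1 CPM in FAS43 and 12.21 and 12.12 CPM in N2. The polarity gene of the zygote mex-5 had 296.1 and 104.8 CPM in FAS43 and 80.8 and 33.9 CPM in N2. Pos-1, a regulator of maternal RNA, had 423.8 and 150.3 CPM in FAS43 and 104.3 and 45.6 CPM in N2. In all 3 genes FAS43 replicate 1 stood far above the other libraries, and the strains did not overlap. The gene of the piRNA pathway Argonaute, prg-1, was more even within FAS43, with 132.7 and 159.4 CPM in FAS43 and 85.2 and 48.3 CPM in N2. The germline helicase gene glh-3 was even as well, at 26.5 and 23.6 CPM in FAS43 and 14.1 and 8.76 CPM in N2.

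The 12 higher genes with the largest weakest pairs, among those with a mean of at least 5 CPM and a gene name, were in part of this kind. Beside amt-1 and glh-3 they were sygl-1, a target of Notch signalling in germline stem cells, the cyclin B genes cyb-2.1 and cyb-2.2, the centrosome-related gene szy-4, the zinc finger gene lsy-27, the T-box gene tbx-33, the neprilysin gene nep-1, the respiratory chain gene ucr-2.3 and the lectin genes clec-87 and clec-91. Sygl-1 was the most even, with 22.2 and 22.3 CPM in FAS43 and 10.4 and 11.6 CPM in N2. Nep-1 had 140.1 and 154.3 CPM in FAS43 and 82.6 and 50.6 CPM in N2. In cyb-2.1, cyb-2.2, lsy-27, tbx-33, szy-4, clec-87 and clec-91, FAS43 replicate 1 stood above replicate 2 by between 0.84 and 1.51 on the log2 scale, and clec-87 had 934 and 344.4 CPM in FAS43 and 213.3 and 109.1 CPM in N2. None of the 12 passed the test (edgeR adjusted p = 0.9996 for each).

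Levels in wild-type embryos placed the genes on the same axis with libraries that the larval comparison did not use. Of the genes higher in all 4 pairs, 96.9% were listed in the embryo table, with a median of 66.3 CPM in N2 embryos. Of the genes lower in all 4 pairs, 64.4% were listed, with a median of 2.68 CPM. Over all genes tested in L1, 82.7% were listed, with a median of 21.6 CPM. The higher genes were also more abundant in the larvae themselves, at a median of 28.9 CPM, against 3.92 CPM for the lower genes and 13.6 CPM for all. Of the 32 genes lower by 2-fold, 50.0% were listed in the embryo table, with a median of 4.57 CPM in N2 embryos. Between the strains in embryos, 1401 of 2013 genes higher in larvae had a negative log2 fold change and 612 a positive one. Of 1467 genes lower in larvae, 637 were negative there and 830 positive. All 13256 genes tested in both stages had 7994 negative and 5262 positive. The embryo table was counted and filtered on its own, so levels set across the stages assume that both were counted alike.

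**Figure D3:**
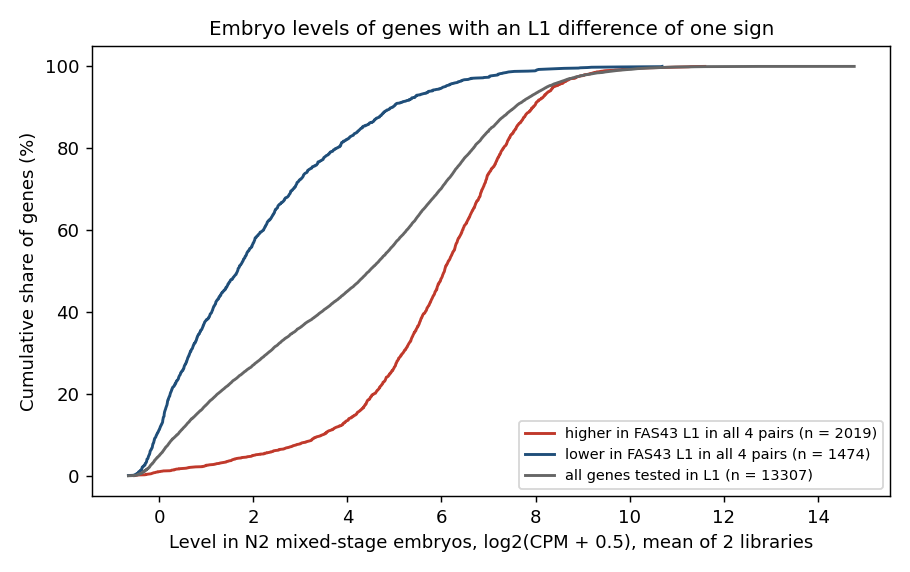
Cumulative share of genes (%) by their level in N2 mixed-stage embryos (log2 of CPM + 0.5, mean of 2 libraries), for genes higher in FAS43 L1 larvae in all 4 library pairs, genes lower in all 4 pairs and all genes tested in L1, each limited to genes listed in the embryo table. The curve of the higher genes lies right of that of all genes and the curve of the lower genes left of it, with medians of 66.3, 2.68 and 21.6 CPM for higher, lower and all.

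The lists of the cuticle and the molt separated libraries within strains rather than the strains. The shares below stand beside 12.9% higher and 14.2% lower in all 4 pairs over all genes tested. Of 19 genes of the embryonic precuticle matrix, the layer that covers the embryo before its first cuticle, 0 were higher and 1 lower in all pairs. Their median was lower by -2.62 on the log2 scale in FAS43 replicate 2 than in FAS43 replicate 1, and 16 of the 19 were lower by at least 2-fold. Noah-1, of that matrix, had 742.2 and 84.97 CPM in FAS43 and 424.0 and 159.0 CPM in N2. Of 19 furrow and annulus collagens, made in a pulse before each new cuticle, 0 were higher and 1 lower in all pairs; dpy-17 had 1472 and 118.4 CPM in FAS43 and 626.1 and 1786 CPM in N2. Both genes overlapped between strains, and FAS43 replicate 2 was the lowest library for each. Of 34 cuticlin genes 7 were lower (20.6%), of 55 molting cycle genes 5 were lower and 5 higher, and of 25 heterochronic genes, which time larval development, 4 were higher and 1 lower. Of 32 regulators of the blast cells that divide after hatching, 6 were higher (18.8%) and 2 lower, and of 17 eggshell genes 4 were higher. Of 27 replicative core histone genes 6 were lower (22.2%) and 2 higher, of the 5 yolk genes 1 was lower, and of the 4 sperm genes 2 were lower.

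Among the lists tied to feeding, gut proteases and cytosolic ribosomal proteins did not set the strains apart. Other feeding lists, such as translation factors and DAF-16 repressed targets, departed from the shares of all genes, as given below. Of 22 gut protease genes, which make the enzymes that digest bacteria, 0 had the same sign in all 4 pairs. Their transcripts summed to 5030 and 22940 CPM in FAS43 and 8169 and 10040 CPM in N2, so the FAS43 libraries were the lowest and the highest of the 4. In 18 of the 22 genes FAS43 replicate 2 was at least 2-fold above replicate 1. Asp-1, an aspartyl protease of the gut, had 1025 and 7147 CPM in FAS43 and 2027 and 2615 CPM in N2. The 17 intestine markers differed likewise, with a median of 1.18 for FAS43 replicate 2 over replicate 1 on the log2 scale.

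Cytosolic ribosomal protein genes, whose transcripts follow growth, had 0 of 81 members with one sign in all 4 pairs. Their transcripts summed to 94410 and 172200 CPM in FAS43 and 96020 and 224900 CPM in N2. Replicate 2 was above replicate 1 in both strains, by a median of 0.87 in FAS43 and 1.29 in N2, and 72 of the 81 genes were at least 2-fold apart within N2. The median log2 fold change of the list, -0.29, became 0.48 without N2 replicate 2. Translation factors and the factors that build ribosomes, in contrast, had more members of one sign: of 31 initiation and elongation factors 11 were higher in FAS43 (35.5%) and 1 lower, and of 29 ribosome biogenesis genes 9 were higher (31%) and 1 lower. All genes tested had 12.9% higher and 14.2% lower. The medians of the translation and ribosome biogenesis lists were small, at 0.24 and 0.29. Of 24 genes of one-carbon metabolism 5 were higher (20.8%) and 0 lower.

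Genes of fasting were mixed. Of 15 genes of fat breakdown induced by fasting, 1 was higher and 1 lower in all pairs, and FAS43 replicate 2 was above replicate 1 by a median of 1.09 on the log2 scale. The glyoxylate cycle gene icl-1, with which worms turn fat into sugar, had 926 and 1745 CPM in FAS43 and 1937 and 1920 CPM in N2. Pck-1, a phosphoenolpyruvate carboxykinase gene, had 591 and 703 CPM in FAS43 and 1081 and 1157 CPM in N2. The strains did not overlap in either gene, with a weakest pair of -0.14 for icl-1 and -0.62 for pck-1. Both genes were lowest in FAS43 replicate 1, and neither passed (edgeR adjusted p = 0.9996 for each). Of the 15 genes of gluconeogenesis and trehalose synthesis as a whole, 2 were lower (13.3%, near the 14.2% of all genes) and 0 higher. The related pck-2 had 890 and 1405 CPM in FAS43 and 1039 and 933 CPM in N2, which overlapped.

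Beside the lists that follow, all genes tested had 12.9% higher and 14.2% lower in all pairs. Of 21 genes that DAF-16 is known to activate, 5 were lower in FAS43 in all pairs (23.8%) and 0 higher. The 5 lower ones were gst-4, lys-7, hsp-12.3, stdh-1 and sod-3. Sod-3 had 3.78 and 3.77 CPM in FAS43 and 4.4 and 14.7 CPM in N2. Of 14 genes that DAF-16 is known to repress, 5 were also lower (35.7%) and 0 higher, and 4 of these 5 (dod-20, dod-23, ins-7 and gcy-6) averaged under 5 CPM; the fifth, dod-19, had 176.3 and 257.2 CPM in FAS43 and 301.1 and 258.9 CPM in N2. The median log2 fold change was -0.25 for activated and -0.24 for repressed targets, but 0.24 for repressed targets with a mean of at least 5 CPM. Of the 25 genes of the insulin and TGF-beta pathways that govern the halt, 5 were lower and 5 higher; daf-16 had 206.4 and 393.5 CPM in FAS43 and 309.5 and 98.9 CPM in N2, which overlapped. Of 26 autophagy genes 2 were higher and 1 lower, of 33 genes of the V-ATPase and lysosome 2 and 0, of 23 genes of fatty acid synthesis 2 and 2, of 24 gut nutrient transporters 3 and 3, and of 41 genes of mitochondrial respiration 1 and 1. Of 32 lysozyme and saposin-like genes 7 were lower (21.9%) and 1 higher.

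**Figure D4:**
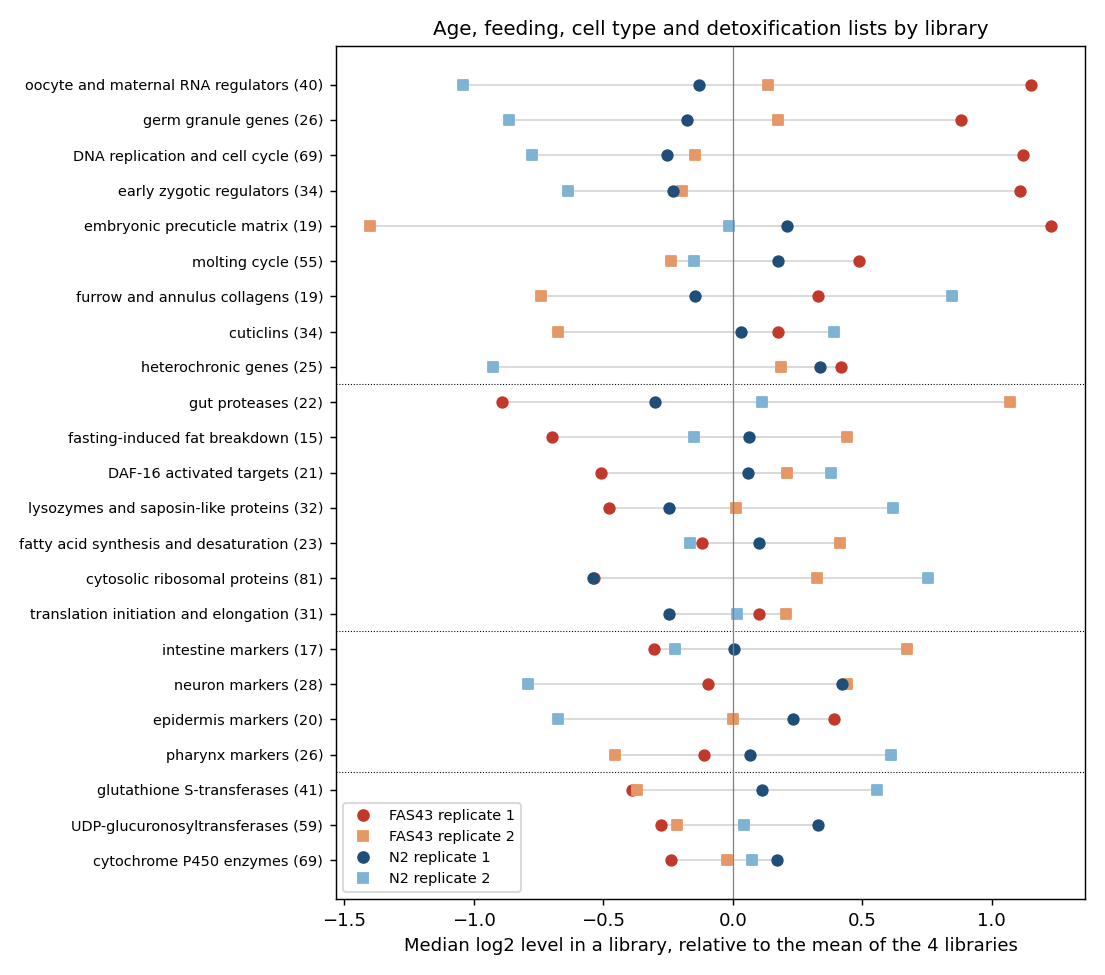
Median log2 level of the tested members of 20 gene lists and 3 detoxification families (number of members in brackets) in each L1 library, relative to the mean of the 4 libraries, with 1 point per library; dotted lines part age, feeding, cell type and detoxification lists. In the maternal, germ granule and cell cycle lists FAS43 replicate 1 is highest and N2 replicate 2 lowest with the other libraries in between, gut proteases put the FAS43 libraries at opposite ends, and the glutathione S-transferases put both FAS43 libraries (-0.39 and -0.37) left of both N2 libraries (0.11 and 0.56).

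Cell type markers showed how far the mix of RNA differed between libraries. For comparison, 12.9% of all genes tested were higher and 14.2% lower in all pairs. Of 26 pharynx markers 10 were lower in FAS43 in all pairs (38.5%) and 0 higher, with a median log2 fold change of -0.65 that was -0.33 without N2 replicate 2. The pharyngeal troponin gene tni-4 had 196.2 and 190.7 CPM in FAS43 and 246.0 and 488.6 CPM in N2, whereas the pharyngeal myosin gene myo-2 had 1342 and 1343 CPM in FAS43 and 2040 and 1297 CPM in N2, which overlapped. Of 28 neuron markers 0 were higher and 1 lower, and N2 replicate 2 was below N2 replicate 1 by a median of -1.2 on the log2 scale. Of 20 epidermis markers 3 were higher and 1 lower, of 25 body wall muscle markers 1 and 2, of 17 intestine markers 3 and 0, of 16 excretory and coelomocyte markers 0 and 0, and of 14 glia markers 0 and 0. Of 36 genes of the pathogen response 9 were lower (25%) and 2 higher, clec-60 by 2-fold; the caenacin gene cnc-4 had 79.96 and 72.99 CPM in FAS43 and 120.3 and 331.7 CPM in N2. Of 25 genes of the unfolded protein responses 3 were lower and 2 higher.

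Libraries of one strain differed in measures of age, growth and cell types. N2 replicate 2 had the lowest maternal, cell cycle, neuron and epidermis medians and the highest ribosomal protein median, and FAS43 replicate 1 the highest maternal and cell cycle medians and the lowest gut protease sum. With 2 libraries per strain, a difference in age or feeding between the larvae that were collected and an effect of the H3.3 mutations cannot be told apart. Nor can a technical difference between the libraries be told apart from these. Whether gene length had a part in the differences between libraries was not tested. The part that larval age or food had in the 2-fold genes was not tested.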

How the data were processed

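RNA-seq libraries of FAS43 and N2 L1 larvae were compared, 2 per strain, with embryo libraries of the same strains as a side measure. The submitters' processing notes name build WBcel235 and the tools edgeR 3.10.5, HTSeq 0.6.1 and TopHat2 2.0.13. How the counter treated strand and multi-mapped reads is not given in the sources. Raw counts per gene were deposited by the authors, and these alone were tested. The authors also deposited normalized counts as a scaled signal, log2 fold changes with log2 abundance, and p-values with an FDR, per their headers. Of these, the count of genes that the authors marked as significant is printed. The mark was set against their p-values and FDR for part of the genes tested, and the values of rnr-2 and ugt-40 beside its limit are printed. The L1 table listed 16249 genes, each with at least 10 counts in its second-highest library, so genes with fewer counts were not analysed here. A gene rare in either strain could be listed through the other strain alone.

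Libraries were grouped by their labels. Counts were scaled by TMM (CPM), filtered with filterByExpr and tested with edgeR 4.0.16 in R 4.3.3 (quasi-likelihood test, 2 residual degrees of freedom, Benjamini-Hochberg adjustment over 16099 genes); DESeq2 1.42.0 was an alternative. Each of the 4 FAS43 and N2 library pairs gave a log2 ratio of CPM + 0.5, and the smallest ratio in size, if all shared a sign, ranked genes. The fits were tested on simulated data with 50 changed genes at each fold. The changed genes were drawn from those with a mean of at least 50 counts, so the recovery does not cover rarer genes. The edgeR test recovered 0% of 2-fold, 20% of 4-fold, 70% of 8-fold and 100% of 32-fold changes, with 1 false call. A gene that did not pass may therefore still differ between the strains. Named genes were the H3.3 genes, called genes, the 12 with the largest weakest pair in each direction (mean of at least 5 CPM, with a gene name), and list members at least 2-fold apart in all pairs (at most 2 per list and direction); other genes were named after their values were seen, and so were the 5 detoxification families. Members and the 42 lists were chosen with earlier results of these data known; 46 list names were not matched. Alternatives were another tool, scaling, low-count filter, pseudocount, fold, replicate block, a fit of all 8 libraries, and leaving out each library.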

Additional observations from a re-analysis of the deposited data

How the results depend on the processing

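The count of edgeR calls (1 higher, 2 lower in FAS43) was 2 and 4 with DESeq2, and from 1 to 3 higher and from 2 to 19 lower with a library left out, where a lone library is assumed to vary like the pair of the other strain; the highest counts, 3 and 19, came without FAS43 replicate 1. The replicate block left 1 higher and 2 lower. Same-numbered libraries did not deviate together (correlation -0.158 across 16099 genes), and a block with crossed numbers, chosen after seeing the data, called 2 higher and 4 lower. Genes with one sign in all pairs numbered 1300 higher and 1344 lower at a mean of at least 5 CPM; with a library left out, 2 pairs remain and the counts were 4105 to 5418 higher and 4377 to 5775 lower. Genes 2-fold apart in all pairs (6 higher, 32 lower) numbered 16 lower at a mean of at least 5 CPM, 12 lower with 2 CPM added, 101 higher and 230 lower at 1.5-fold, 3 higher and 5 lower at 3-fold, and 23 to 1206 higher and 141 to 780 lower with a library left out. The cause was not tested beyond the fewer genes or pairs that these settings leave. Among the named genes, 3 gained a call: hsp-16.41 (DESeq2), Y49E10.36 (DESeq2, and edgeR without FAS43 replicate 1) and R09E12.9 (edgeR without FAS43 replicate 1). Of 42 list medians, 23 turned sign with some library left out; that of DAF-16 repressed targets turned at a mean of at least 5 CPM (0.24). Low counts limit the 17 lower genes under a mean of 5 CPM most.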
